A study of Rattus norvegicus with 4 samples.

Results

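Myoc, Angptl7, Adh7 and Slc47a1 are 4 genes of the rat carotid body (CB), the organ that senses arterial oxygen where the carotid artery divides, that were barely detected at 5 days of age and were present at 21 days. They are 4 of the 32883 genes listed and 4 of the 13843 genes tested between ages. They were chosen by their counts in these same libraries, near absent in both neonatal libraries and present in both adult libraries, so their levels and folds between ages are given as a description, without a test. All animals were Sprague-Dawley rats without any treatment, and whole CBs were pooled, 6 pups per neonatal library (day 5) or 3 rats per adult library (day 21) as the sample labels have it, while the methods of the study give other pool sizes. Each age has 2 libraries, from CBs of both sexes. The labels do not say how animals or litters were divided among libraries, so p-values measure the spread between these samples only, which may be technical. In pooled whole tissue, fewer cells of a type and less RNA per cell cannot be told apart.

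The 4 genes come from unrelated families. Myoc encodes myocilin, a secreted glycoprotein with an olfactomedin domain that is best known from the fluid outflow tissue of the eye and from inherited glaucoma. Angptl7 encodes a secreted angiopoietin-like protein with a fibrinogen-like domain, known from the cornea and the same outflow tissue. Adh7 encodes an alcohol dehydrogenase that oxidizes retinol as well as ethanol and is known from the lining of the upper digestive tract and from the cornea. Slc47a1 encodes MATE1, a transporter that exchanges protons for organic cations and is known for secreting drugs in kidney and liver. Myoc and Angptl7 are both known to be induced by glucocorticoids in cells of the outflow tissue.

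The sequences upstream of 2 of the genes are shown because the genes have the same time course and come from different families. RefSeq promoter sequences of the assembly GRCr8, a later build than that of the deposited counts, were matched by symbol for Myoc and Adh7. Angptl7 and Slc47a1 had no entry. The 250 bases before the annotated start of Myoc lie at chr13:77509713-77509962 and those of Adh7 at chr2:229421875-229422124, both on the plus strand, and are printed 5′ to 3′. Capitals mark TATAAA, the TATA box, in Myoc and, in Adh7, GGGCGG, the GC box, followed by TGAATCA. The latter is a match to TGANTCA, a pattern looser than the AP-1 site in that it takes any base in the centre.
Myoc: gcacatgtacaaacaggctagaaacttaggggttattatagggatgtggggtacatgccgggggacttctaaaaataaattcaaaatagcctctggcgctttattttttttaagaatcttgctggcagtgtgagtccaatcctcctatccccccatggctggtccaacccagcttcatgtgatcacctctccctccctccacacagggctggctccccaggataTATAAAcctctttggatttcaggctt
Adh7: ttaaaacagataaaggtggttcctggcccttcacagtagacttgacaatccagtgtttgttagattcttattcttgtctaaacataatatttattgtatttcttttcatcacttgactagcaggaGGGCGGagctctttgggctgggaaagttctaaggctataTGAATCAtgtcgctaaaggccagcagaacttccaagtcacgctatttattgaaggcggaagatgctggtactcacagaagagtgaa

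The first base of TATAAA in Myoc was 26 bases before the start, and Adh7 held no TATAAA on either strand. Of 33469 rat promoters of 300 bases, from 250 bases before to 50 after the start, 14.2% held TATAAA. The GC box GGGCGG, at 125 bases before the start of Adh7, was held by 33.1% of promoters and not by Myoc. The pattern TGANTCA, matched at 86 bases before the start of Adh7, was held by 7.33% and not by Myoc. Its matches are not all AP-1 sites. AGAACA, one arm of the glucocorticoid response element, was found in Adh7 at 14 bases after the start and in 20.7% of promoters, and was not found in the 300 bases of Myoc. Of 10 motifs searched on both strands, CANNTG (72.1% of promoters) and CAGAC (50.1%) were held by both genes, CCAAT (37.5%) by Myoc, and AGGTCA (16.2%), CATTCC (14.2%) and TTGGC (45.8%) by neither. No match overlapped another in either promoter. These letters are matches in a window and not sites shown to be bound.

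The libraries held between 36286191 and 39476110 estimated counts. At these totals, 3 counts, the floor used here for a single library, correspond to between 0.0736 and 0.0845 on the counts-per-million scale (CPM, scaled by edgeR's TMM method). Tyrosine hydroxylase (Th) and the other 10 glomus cell markers were above this floor in all 4 libraries. Their summed level was 7785 and 6500 CPM in neonates and 8874 and 6967 CPM in adults. Of these markers, Chga differed most between the neonatal libraries, at 1725 and 793 CPM in neonate replicates 1 and 2. The neonatal libraries differed from each other in 2 tissues next to or within the CB. Pth, Gcm2 and Casr, genes of the parathyroid gland, summed to 1796 and 212 CPM in the neonatal libraries and to at most 0.0504 CPM in adults. Summed markers of myelinating Schwann cells were at 894 and 2248 CPM there, and at 1759 and 1934 CPM in adults. The share of counts from mitochondrially encoded genes was 18.7% and 15.6% in neonates and 9.06% and 9.08% in adults. The part of these differences in the values of the 4 genes was not tested.

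Myoc (ENSRNOG00000003221) had 5 counts in neonate replicate 1 and 0 in neonate replicate 2, against 1148 and 1665 counts in the adult libraries. In CPM this was 0.141 (95% exact Poisson interval 0.0457 to 0.329) and 0 in neonates, and 28.2 (26.6 to 29.9) and 42.0 (40.0 to 44.0) in adults. Neonate replicate 1 was the only neonatal library above the floor, and both adult libraries were far above both neonatal ones.

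Angptl7 (ENSRNOG00000009589) had 2 counts in neonate replicate 1, 0 in neonate replicate 2, and 41 and 59 in adults. Its adult levels were 1.01 (0.722 to 1.37) and 1.49 (1.13 to 1.92) CPM, against 0.0563 CPM and 0 in neonates. Adult replicate 1 lay close to the 1 CPM that a gene needed in 2 libraries to be tested, a limit set on CPM before TMM scaling.

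Adh7 (ENSRNOG00000032959) had 1 count in neonate replicate 1, 0 in neonate replicate 2, and 62 and 49 in adults. That is 0.0282 CPM and 0 in neonates, and 1.52 (1.17 to 1.95) and 1.23 (0.913 to 1.63) CPM in adults. Unlike in Myoc and Angptl7, adult replicate 1 had the higher value. The intervals of the adult libraries overlapped, as did those of Angptl7 but not those of Myoc.

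Slc47a1 (ENSRNOG00000057404) had 0 counts in neonate replicate 1 and 2 in neonate replicate 2, and 59 and 67 in adults. Its adult levels were 1.45 (1.102 to 1.87) and 1.69 (1.31 to 2.14) CPM, against 0 and 0.0557 CPM in neonates. For Angptl7, Adh7 and Slc47a1, every neonatal library was under the floor of 3 counts, 0.0845 and 0.0835 CPM in neonate replicates 1 and 2. The exact Poisson interval of a count of 0 reached 0.104 and 0.103 CPM there. The counts of the 4 genes were whole numbers in every library, whereas counts of genes that share reads with a copy are often fractional. Intervals and floors cover counting error only, not the spread between pools of animals.

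**Figure D1:**
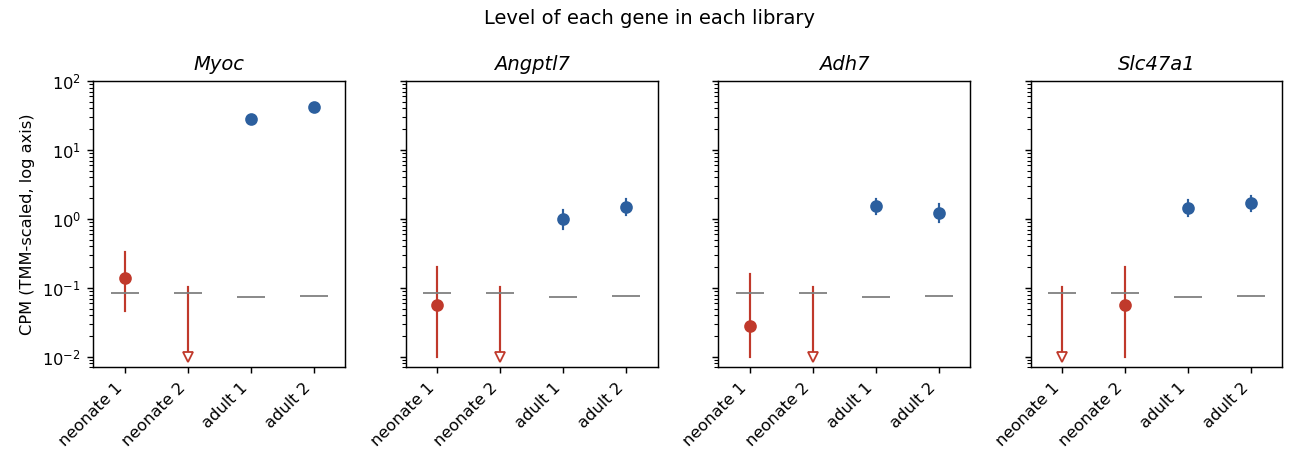
TMM-scaled CPM of Myoc, Angptl7, Adh7 and Slc47a1 (log axis) in each of the 4 libraries. Points are values, lines are 95% exact Poisson intervals drawn down to 0.01 CPM, open triangles mark counts of 0, placed at 0.01 CPM, and grey lines are the floor of 3 counts. Neonatal libraries (red) are at or under 0.141 CPM and adult libraries (blue) at or above 1.01 CPM in all 4 genes.

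As means ± SD over the 2 libraries of an age, Myoc was at 0.0704 ± 0.0996 CPM in neonates and at 35.1 ± 9.74 CPM in adults (n = 2 each). Over the pooled counts of each age, 5 in neonates and 2813 in adults, its level was 499.7-fold higher in adults, with a 95% counting interval of 214 to 1540.1. Angptl7 had 0.0282 ± 0.0398 and 1.25 ± 0.340 CPM, a ratio of 44.4 (12.0 to 372) that rests on 2 neonatal counts. Adh7 had 0.0141 ± 0.0199 and 1.38 ± 0.203 CPM, a ratio of 98.6 (17.3 to 3928) that rests on 1 neonatal count. Slc47a1 had 0.0278 ± 0.0394 and 1.57 ± 0.170 CPM, a ratio of 56.0 (15.2 to 467) that rests on 2. The differences between these 4 ratios were not tested.

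On the scale of log2 CPM with a prior count of 2, the difference of means between adults and neonates was 8.41 for Myoc, 4.07 for Angptl7, 4.45 for Adh7 and 4.42 for Slc47a1. The prior count holds down all 4 values, and with a prior count of 0.25 they were 10.11, 5.92, 6.51 and 6.28 in the same order. In edgeR's own estimate, with the genes ordered from the largest log2 fold change toward adults, Myoc was number 10, Adh7 number 16, Slc47a1 number 18 and Angptl7 number 19 of the 13843. All 4 passed the filter on low counts through their adult libraries alone, and had to differ between ages to do so. They would also be called by the rule used for other genes here, a Benjamini-Hochberg adjusted p under 0.05 in edgeR's quasi-likelihood fit and a fold of at least 2, but the contrast is the one that chose them and nothing is read from that. This rule called 1822 genes as higher in adults, 13.2% of all genes tested, and 1063 as lower in adults, 7.68%. With library size alone in place of TMM it called 2549 and 704, and the log2 fold changes had a median of 0.25 in place of 0.0029.

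**Figure D2:**
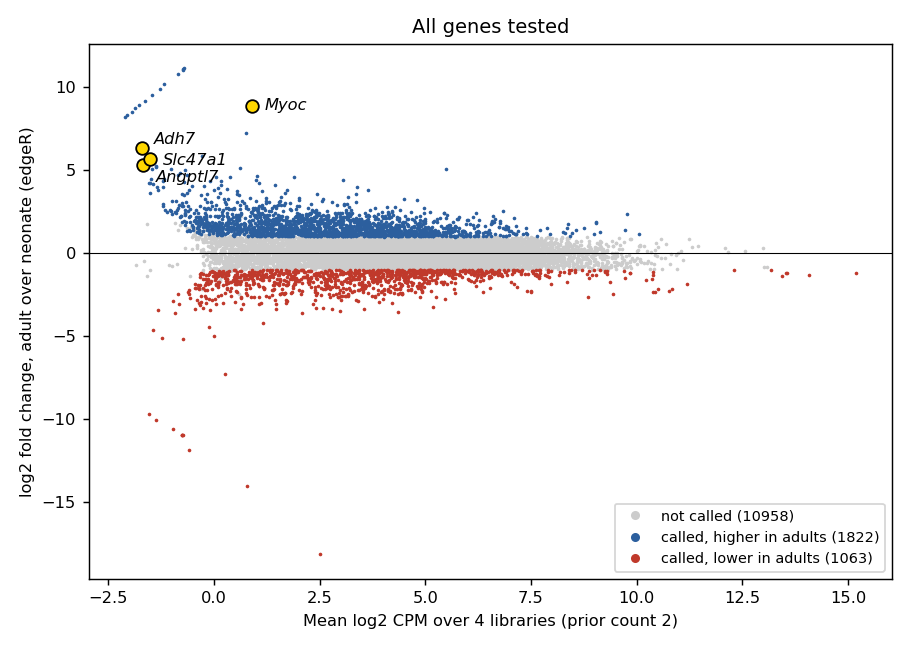
Mean log2 CPM over the 4 libraries (x axis, prior count 2) against edgeR's log2 fold change of adult over neonate (y axis) for the 13843 genes tested. Blue and red points are the 1822 genes called higher and the 1063 called lower in adults, and the 4 genes are the labelled gold circles, with 9 genes above Myoc in log2 fold change.

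The difference between the adult libraries was not used to choose the genes. Myoc was 1.49-fold higher in adult replicate 2 than in adult replicate 1 (counting interval 1.38 to 1.61), beyond counting error. Among the 4190 genes with a mean adult level from 20 to 60 CPM, the median fold between the adult libraries, in either direction, was 1.07 and the 90th percentile was 1.19. The ratio of Myoc was above this percentile. Angptl7 was 1.48-fold higher in the same library, with an interval of 0.975 to 2.26 that includes no difference. For Slc47a1 the ratio was 1.17 (0.809 to 1.68) and for Adh7 it was 0.811 (0.546 to 1.1996), so the adult libraries were not told apart by either gene at this depth. Among 778 genes with a mean adult level from 1 to 2 CPM, the median fold between the adult libraries was 1.23 and the 90th percentile was 1.69, and Angptl7, Adh7 and Slc47a1 were all within the latter.

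Few genes had the same time course. At most 5 counts in each neonatal library and at least 1 CPM in both adult libraries, limits that were set after seeing the data so that they hold the 4 genes, were met by 26 genes, or 0.188% of those tested. Of these, 15 had whole counts in every library and 11 had fractional estimated counts, which arise where reads fit several transcripts, so that their levels are uncertain. Of the 26 genes, 10 were at 0 in both neonatal libraries, and of these 10 only Kcnj13, which encodes an inward rectifier potassium channel, had whole counts, with 73 and 80 counts in adults. Its relative Kcnj10, a potassium channel of glial cells, had 0 and 5 counts in neonates and 70 and 128 in adults. Among the others with whole counts were LOC299282 (3 and 5, then 594 and 817 counts), Paqr8, a membrane progesterone receptor (3 and 4, then 100 and 117 counts), Tacr3, the neurokinin B receptor (3 and 0, then 58 and 81 counts), and Trpv3, a heat-sensitive cation channel (3 and 0, then 46 and 76 counts). Kcnj13, Kcnj10, Paqr8, Tacr3, Trpv3 and LOC299282 are named here after their values were seen.

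**Figure D3:**
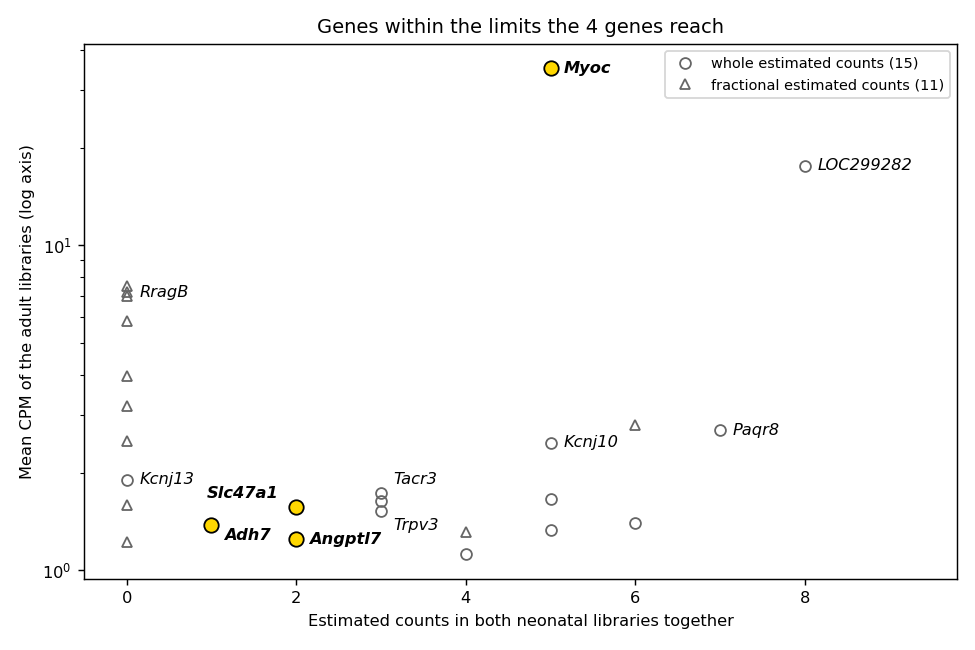
Counts in both neonatal libraries together (x axis) against the mean CPM of the adult libraries (y axis, log scale) for the 26 genes with at most 5 counts in each neonatal library and at least 1 CPM in both adult libraries. Gold circles are the 4 genes, open circles the other genes with whole counts and open triangles the 11 genes with fractional counts. CPM are not divided by transcript length, so heights do not rank the levels of different genes. Myoc and LOC299282 lie apart from the rest, above 10 CPM.

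Under stricter limits on the adult side, under 1 CPM in both neonatal libraries and at least 5 CPM in both adult libraries, 18 genes were found, and Myoc was the only one of the 4 among them. Ordered by the ratio of pooled levels, with 3 counts over the age in place of smaller neonatal sums, Myoc came first at 499.7. RragB was at least 170.2-fold higher, LOC103692171 at least 167-fold and LOC103689945 at least 139.7-fold, all of them at 0 in both neonatal libraries and with fractional counts. LOC299282, with whole counts, was 157-fold higher. The next were Mfsd14a (59.6), Tmem45b (35.0), the complement gene C4b (25.5), the orphan receptor Gpr158 (24.2) and Thrsp (21.8), of which Mfsd14a and C4b have fractional counts. The reverse pattern, under 1 CPM in adults and 5 CPM or more in neonates, in both libraries of each age, was found in 9 genes. Leaving a library out removes a condition, so the count of 18 can rise for that reason alone. It was 38 without neonate replicate 1, 35 without neonate replicate 2, 33 without adult replicate 1 and 22 without adult replicate 2.

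Likeness to each gene was measured by the distance between log2 CPM profiles over the 4 libraries, each centred on its own mean (prior count 2). Angptl7 and Adh7 were the closest pair of the 4, at a distance of 0.759, Adh7 and Slc47a1 were at 1.23, and Angptl7 and Slc47a1 at 1.53. Myoc lay from 4.11 to 4.50 from the other 3, beside a larger difference between ages. The profiles nearest to Angptl7 were those of AABR07007055.1 (0.253), Trpv3 (0.287), Tacr3 (0.378), Galnt17 (0.459) and Gda (0.491). Nearest to Adh7 were LOC100910275 (0.0740), which has fractional counts, Gpr158 (0.354), Cct8l1 (0.441), the matrix protein gene Tnr (0.453) and NEWGENE_1306267 (0.476). Nearest to Slc47a1 were Thrsp (0.211), the interleukin receptor subunit Il18rap (0.343), Slc7a14 (0.539), Akr1c15 (0.587) and Paqr8 (0.599). Nearest to Myoc were LOC102556337 (1.92), RragB (1.93), LOC103692171 (2.12), LOC103689945 (2.14) and LOC299282 (2.36), farther off than the nearest genes of the other 3. With a prior count of 0.25, 4 of the 5 genes nearest to Myoc were again among its nearest 5, against 2 for Angptl7 and 0 for Adh7 and Slc47a1, so their neighbours depend on the prior count.

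The question whether relatives of the 4 genes changed between ages was asked of lists set by gene family and pathway. These lists and those of cell types were chosen with earlier results of these data known. Of 12 other genes of the olfactomedin-domain family, to which Myoc belongs, 11 were tested, 0 were called higher in adults, 2 lower and 9 neither, with a median log2 fold change of 0.045. The shares called, 0% higher and 18.2% lower, rest on too few genes to be set apart from the 13.2% and 7.68% of all genes tested. Beside the 0 higher from edgeR, DESeq2 also called 0 as higher. In edgeR, 5 of the 11 were higher at an unadjusted p under 0.05 of any fold. Olfm2, a secreted olfactomedin, fell from 56.6 ± 0.841 to 21.0 ± 3.97 CPM, a log2 fold change of -1.43 with a standard error of 0.13 (edgeR quasi-likelihood, adjusted p = 2.8e-05). Olfm3 had 1.62 ± 0.185 and 0.745 ± 0.127 CPM, with a log2 change of -1.12 (edgeR, adjusted p = 0.032), and its call was lost without adult replicate 1, without adult replicate 2, with DESeq2, with library size alone and with no filter on low counts, with adjusted p up to 0.18, and it was not tested without neonate replicate 1, without neonate replicate 2 or at a mean of at least 5 CPM. Gldn, which encodes gliomedin of the nodes of Ranvier, was at 6.65 and 15.2 CPM in the neonatal and 18.0 and 17.4 CPM in the adult libraries and was not called (edgeR, adjusted p = 0.072).

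Of the angiopoietins, their receptors and the angiopoietin-like genes other than Angptl7, 11 of 12 had an entry used here and 8 were tested, of which 2 were called higher in adults, 1 lower and 5 neither, too few to be set apart from the 13.2% and 7.68% of all genes tested. Angptl2, a secreted relative of Angptl7, rose from 11.7 ± 2.06 to 42.5 ± 9.41 CPM, a log2 fold change of 1.86 with a standard error of 0.17 (edgeR quasi-likelihood, adjusted p = 3.3e-05). Angpt1, the activating ligand of the Tek receptor, rose from 0.462 ± 0.0236 to 2.17 ± 0.709 CPM. Angptl4, an inhibitor of lipoprotein lipase, fell from 39.8 ± 0.702 to 7.94 ± 0.781 CPM, a log2 fold change of -2.33 with a standard error of 0.12 (edgeR, adjusted p = 2.1e-06). Angptl1 had 15.6 ± 1.38 and 27.3 ± 4.99 CPM, a difference of 0.81 on the log2 scale that is short of 2-fold. Angptl6 and Angptl8 had too few counts to be tested. With library size alone the number called higher was 4, and without adult replicate 2 it was 1.

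Of 39 genes of alcohol and retinoid metabolism, the pathway of Adh7, 35 had an entry and 28 were tested, of which 5 were called higher in adults, 2 lower and 21 neither, with a median log2 fold change of 0.24. These are 17.9% and 7.14% of the list, close to the 13.2% and 7.68% of all genes tested. Adh6, another alcohol dehydrogenase, rose from 2.97 ± 0.420 to 12.2 ± 0.758 CPM, a log2 fold change of 2.03 with a standard error of 0.22 (edgeR quasi-likelihood, adjusted p = 6.5e-05). Unlike Adh7 it was well above the floor in neonates, with 116 and 96 counts. Adh5, the dehydrogenase of formaldehyde adducts that most cells carry, had 71.5 ± 5.52 and 61.2 ± 1.86 CPM and was not called (edgeR, adjusted p = 0.059). Adh6a had 2 and 5 counts in neonates and 1 count in each adult library.

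Among the enzymes after the dehydrogenase step, Aldh1a1, which makes retinoic acid from retinal, rose from 2.38 ± 0.416 to 11.7 ± 1.61 CPM, and Aldh3a1, a corneal aldehyde dehydrogenase, from 1.12 ± 0.466 to 9.25 ± 2.46 CPM. Cyp26b1, which degrades retinoic acid, rose from 5.46 ± 2.51 to 16.1 ± 0.0891 CPM. Crabp1 and Crabp2, which bind retinoic acid in the cell, fell by 2.18 and 1.68 on the log2 scale (edgeR, adjusted p = 0.0034 and 1.3e-05), and the counts of Crabp2 are fractional. Aldh1a2 and Aldh1a3, which also make retinoic acid, had log2 fold changes of -0.90 and -0.83 (edgeR, adjusted p = 0.0084 and 0.00031), short of 2-fold.

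Slc47a1 was set beside other transporters of organic ions and drugs. Of 24 listed, 21 had an entry and 14 were tested. Of these, 6 (42.9%) were called higher in adults, 1 (7.14%) lower and 7 neither, with a median log2 fold change of 0.93. Of all genes tested, 13.2% were called higher and 7.68% lower, with a median of 0.0029. Slc22a3, an uptake transporter of organic cations, rose from 0.294 ± 0.101 to 3.62 ± 1.23 CPM, a log2 fold change of 3.61 with a standard error of 0.46 (edgeR quasi-likelihood, adjusted p = 0.00017). Slco1a4, an organic anion uptake transporter, rose from 3.58 ± 0.148 to 13.8 ± 3.37 CPM. The efflux pumps Abcc4 and Abcc1 rose by log2 fold changes of 1.62 and 1.53, and the counts of Abcc1 are fractional. Slco4a1, a carrier of thyroid hormone, had 63 and 64 counts in neonates and 22 and 9 in adults, and fell by 2.20 on the log2 scale (edgeR, adjusted p = 0.0037).

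The relative nearest to Slc47a1 by name, Slc47a2, had 11 and 0 counts in neonates and 15 and 12 in adults, too few to be tested. Slc22a6, a renal anion transporter, was at 0 in all 4 libraries. Slco4a1 was not tested without neonate replicate 1 or without neonate replicate 2, so the number called lower was then 0. The call of Slco2a1 was lost without adult replicate 1 and that of Abcg2 without neonate replicate 2.

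Glucocorticoid receptor and response genes were listed because Myoc and Angptl7 are known to respond to glucocorticoids in the eye. All 18 were tested, and 11 (61.1%) were called higher in adults, 1 (5.56%) lower and 6 neither, with a median log2 fold change of 1.44. Of all genes tested, 13.2% were called higher and 7.68% lower, with a median of 0.0029. This list was chosen with earlier results of these data known, and its link to the 4 genes was not tested. Klf9, a transcription factor induced by glucocorticoids and thyroid hormone, rose from 9.17 ± 0.340 to 83.1 ± 0.542 CPM, a log2 fold change of 3.18 with a standard error of 0.099 (edgeR quasi-likelihood, adjusted p = 1.1e-06). Nr3c2, the mineralocorticoid receptor, rose from 0.797 ± 0.132 to 6.57 ± 0.845 CPM, and Zbtb16, a glucocorticoid-induced transcription factor, from 0.531 ± 0.114 to 3.997 ± 0.664 CPM. Pdk4, a kinase that restrains glucose oxidation, rose from 6.15 ± 1.14 to 24.3 ± 1.28 CPM.

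Nr3c1, the glucocorticoid receptor itself, had 93.2 ± 1.15 and 163 ± 13.5 CPM, and Hsd11b1, which regenerates active glucocorticoid, had 8.17 ± 1.91 and 15.3 ± 2.89 CPM, both short of 2-fold. The other genes not called were the response genes Mt2A, Glul, Sgk1 and Dusp1, with log2 fold changes of 0.93, 0.66, 0.50 and 0.22. Mt1, a metallothionein, had 1.78 ± 0.0344 and 0.796 ± 0.0203 CPM and was the 1 gene called lower (edgeR, adjusted p = 0.022). Its call was lost with DESeq2, with library size alone, without adult replicate 1 and without adult replicate 2, and it was not tested without neonate replicate 1 or without neonate replicate 2. The call of Fkbp5 was lost without adult replicate 1.

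**Figure D4:**
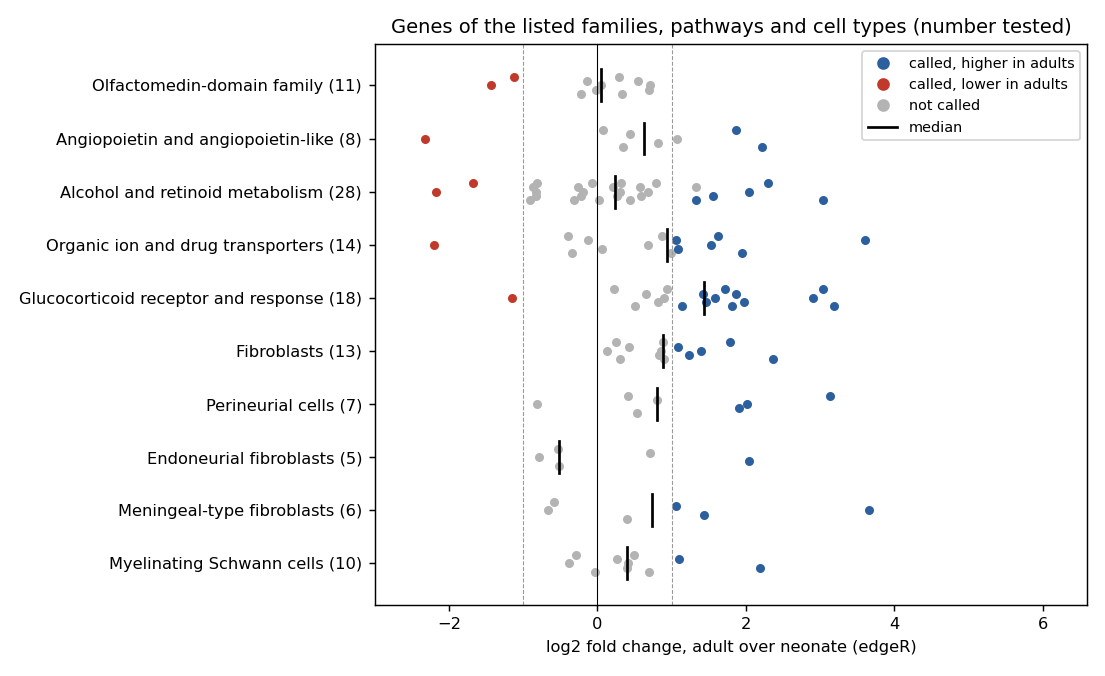
Log2 fold change of adult over neonate from edgeR (x axis) for each tested gene of the family, pathway and cell type lists (rows), with called genes coloured by direction, other genes in grey and the median of each list as a black bar. Glucocorticoid response genes have a median of 1.44, while the olfactomedin-domain family has a median of 0.045 and no gene called higher in adults.

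Markers of fibroblasts and nerve sheath cells were measured beside the 4 genes. Of those tested, 38.5% of fibroblast, 42.9% of perineurial, 20% of endoneurial, 50% of meningeal-type and 20% of myelinating Schwann cell markers were called higher. None was called lower. Of all genes tested, 13.2% were called higher and 7.68% lower. The perineurial, endoneurial, meningeal-type and Schwann cell genes called are too few to be set apart from these shares. Of 13 fibroblast markers tested, 5 were called higher in adults, 0 lower and 8 neither. Gsn, an actin-severing protein, rose from 383 ± 45.8 to 1981 ± 114 CPM, and Dcn, the proteoglycan decorin, from 526 ± 84.9 to 1391 ± 172 CPM. Pi16, a marker of adventitial fibroblasts with fractional counts, rose by a log2 fold change of 1.78, and Cd34 by 1.23. Col1a1, a collagen that defines the type, had 5756 ± 789 and 6299.7 ± 34.8 CPM and was not called. The markers summed to 13885 and 16546 CPM in neonates and 19595 and 21722 CPM in adults, 1.36-fold higher, and all 13 were past the floor in every library.

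Of 7 perineurial markers tested, 3 were called higher in adults, 0 lower and 4 neither. Cldn1, a tight junction protein of the perineurium, rose from 38.7 ± 4.53 to 156 ± 18.3 CPM, a log2 fold change of 2.01 with a standard error of 0.11 (edgeR quasi-likelihood, adjusted p = 3.4e-06). Ntn4, a laminin-related matrix protein, rose from 0.548 ± 0.420 to 4.84 ± 1.81 CPM, and Krt19, a keratin, from 1.95 ± 0.234 to 7.32 ± 2.09 CPM. The defining marker Lypd2 was at 0 in all 4 libraries. The list summed to 372 and 407 CPM in neonates and 619 and 725 CPM in adults, 1.73-fold higher.

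Of 5 endoneurial fibroblast markers tested, 1 was called higher, Abca9, a lipid transporter that rose from 4.87 ± 0.118 to 20.1 ± 5.97 CPM, 0 lower and 4 neither. The median log2 fold change was -0.51, with Sox9 at -0.51, Osr2 at -0.79 and Wif1 at -0.54, none of them called. The list summed to between 55.3 and 60.2 CPM in neonates and between 85.5 and 110.5 CPM in adults, and most of this sum was Etv1, with 43.9 ± 2.19 and 71.7 ± 11.5 CPM. Of 6 markers of meningeal-type fibroblasts tested, 3 were called higher, 0 lower and 3 neither. Slc6a13, a GABA and taurine carrier, had 0 and 6 counts in neonates and 45 and 43 in adults, the time course among these markers nearest to that of the 4 genes, and was noticed after its values were seen. Foxc1 and Foxc2, transcription factors of the meninges, had log2 fold changes of -0.58 and -0.66 (edgeR, adjusted p = 0.00062 and 0.016), short of 2-fold, and Ptgds, a prostaglandin synthase, had 12 and 17 counts in neonates and 2 and 0 in adults, too few to be tested. Cldn11 rose from 12.7 ± 1.68 to 34.4 ± 2.22 CPM, and the call of Dpp4 was lost without neonate replicate 1 and without adult replicate 2. The meningeal-type list summed to between 87.6 and 98.7 CPM in neonates and between 107 and 108 CPM in adults.

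Of 10 markers of myelinating Schwann cells, 2 were called higher, Pllp and Ncmap, 0 lower and 8 neither. Without neonate replicate 2 the number called higher was 5, and it was 1 without any other single library. For the counts of 0 called lower, DESeq2 also called 0 in each of these 5 lists, and at an unadjusted p under 0.05 of any fold 2 meningeal-type markers and 0 of the other 4 lists were lower.

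The ratio of summed levels, adult over neonate, was 1.73 for perineurial cells, 1.70 for endoneurial fibroblasts, 1.36 for fibroblasts, 1.18 for myelinating Schwann cells, 1.16 for sustentacular cells and glia, 1.15 for meningeal-type fibroblasts and 1.11 for glomus cells. A sum follows its most abundant markers. The rise of the glomus sum, from a mean of 7143 to 7921 CPM, rested on Epas1. Epas1 had 1743 and 1886 CPM in neonates and 3771 and 2727 CPM in adults, a larger rise than that of the sum. The other glomus markers together were thus lower in adults. Among them, Dbh had 216 and 139 CPM in neonates and 83.8 and 59.4 CPM in adults, and Cox4i2 had 349.9 and 294 against 205 and 164 CPM. Th went the other way, with 1020 and 837 CPM in neonates and 1407 and 1135 CPM in adults. The endoneurial sum went against the median of its list. Between the adult libraries, Myoc was higher in adult replicate 2 by a ratio of 1.49. The ratio of summed markers was 1.40 for skeletal muscle, 1.29 for endoneurial fibroblasts and 1.17 for perineurial cells. It was 1.11 for fibroblasts and 0.785 for glomus cells. The part of these cells in the values of the 4 genes was not tested.

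Tissues next to the CB in which some of the 4 genes are known were also measured. Thyroid markers summed to between 1.21 and 1.96 CPM in all 4 libraries, with the defining marker Nkx2-1 at 0 throughout. Epithelial markers are of a kind of lining in which Adh7 is known. They summed to 26.9 and 13.6 CPM in neonates and 26.0 and 25.05 CPM in adults. Krt13 was at 0 throughout, and Krt5 and Krt14 were at 0 in both adult libraries. Most of the sum was Epcam and Cdh1. Epcam had 15.9 and 4.15 CPM in neonates and 9.28 and 6.12 CPM in adults. Cdh1 had 9.41 and 9.13 CPM in neonates and 16.7 and 18.9 CPM in adults. Cartilage and tendon markers were at 24.7 and 29.8 CPM in neonates and 8.25 and 8.996 CPM in adults. Col2a1 went from 16.6 and 22.05 CPM to 1.203 and 2.696 CPM, while Acan had 0.676 and 0.445 CPM in neonates and 2.95 and 2.22 CPM in adults. Skeletal muscle markers had a ratio between ages of 1.02 and endothelial markers of 0.883.

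**Figure D5:**
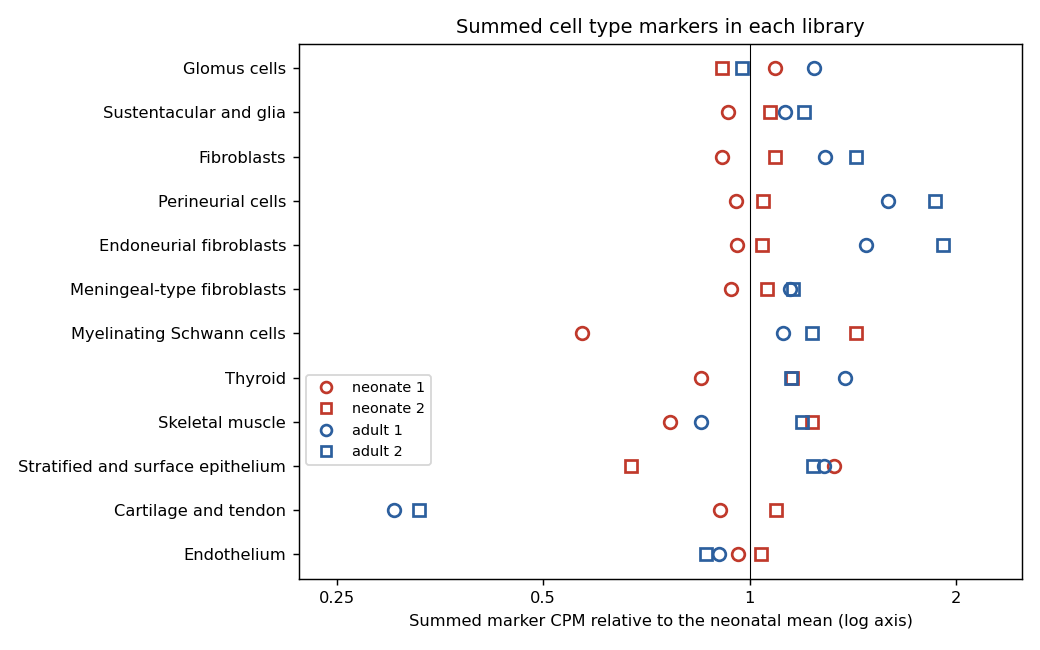
Summed CPM of the markers of each cell type (rows) in each library, relative to the neonatal mean of the list (x axis, log scale), with neonates in red, adults in blue, replicate 1 as circles and replicate 2 as squares. The parathyroid list is not drawn. Sums of perineurial cells, fibroblasts, endoneurial and meningeal-type fibroblasts, and sustentacular cells and glia are higher in both adult libraries than in both neonatal ones. The endoneurial sum goes against a median log2 fold change of -0.51 in its list. The cartilage and tendon sum, which in neonates is mostly Col2a1, is lower in both adult libraries.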

How the data were processed

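RNA of pooled rat CBs was sequenced in 2 libraries per age. The deposited values are estimated counts by gene, which came from trimmed reads through STAR and Salmon 1.5.2 on Rnor_6.0 and were neither normalized nor filtered by the authors. The study describes 3 replicates per age, of which 2 are analysed here. Totals ran from 36286191 to 39476110.

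Estimated counts were rounded and 636 genes removed that a RefSeq table of a later assembly, GRCr8, matched by symbol or synonym, gives as other than protein-coding; genes without a match were kept. The genes reaching 1 CPM, before TMM scaling, in 2 or more libraries were tested by edgeR 4.0.16 (R 4.3.3, limma 3.58.1), quasi-likelihood with TMM and no covariates. They were called where the Benjamini-Hochberg adjusted p was under 0.05 and the fold at least 2. The steps were tested on simulated data. The 4 genes and the lists were chosen with earlier results of these data known. Named genes were the 4 genes, the 5 nearest profiles of each, up to 4 called genes per list and direction, relatives by family name, defining markers and the 10 largest folds of the onset pattern. Replicates differed beyond sampling noise. Alternatives were DESeq2 1.42.0, other scaling, filters, prior counts and fold minimum, a replicate block and each library left out. Some listed genes are not reported here.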

Additional observations from a re-analysis of the deposited data

How the results depend on the processing

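For the genes called higher and lower between ages, counts were 1168 and 656 with a mean of at least 5 CPM, 4300 and 4325 with no minimum fold change, and 704 lower with library size alone. The log2 fold changes with a prior count of 0.25 were 10.11 for Myoc, 5.92 for Angptl7, 6.51 for Adh7 and 6.28 for Slc47a1, and with DESeq2 they were 5.47 for Angptl7, 6.62 for Adh7 and 5.81 for Slc47a1. The differences rest on how counts near 0 are handled. The onset pattern held 8 genes with under 0.5 CPM in neonates, 3 with at least 10 CPM in adults, 34 with library size alone, and from 22 to 38 with one library left out.

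With no minimum fold change, genes called higher numbered 3 in the olfactomedin-domain family, 5 among angiopoietins, 11 in retinoid metabolism, 10 fibroblast, 6 perineurial and 2 endoneurial markers, and genes called lower numbered 8 in retinoid metabolism, 3 among transporters and 2 meningeal-type markers. With a mean of at least 5 CPM, 1 olfactomedin gene and 1 retinoid gene were lower, 0 transporters and 0 glucocorticoid genes were lower, and 1 angiopoietin, 1 perineurial and 1 Schwann gene were higher. With library size alone, 4 angiopoietins and 9 fibroblast markers were higher, 1 olfactomedin gene and 0 glucocorticoid genes lower. With DESeq2, 1 olfactomedin gene and 0 glucocorticoid genes were lower. With no filter on low counts, 1 olfactomedin gene and 1 meningeal-type marker were lower.

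With one library left out, numbers called higher ran from 0 to 1 in the olfactomedin-domain family, 1 to 3 among angiopoietins, 1 to 3 meningeal-type and 1 to 5 Schwann markers, and numbers called lower were 1 olfactomedin gene throughout, 1 to 2 retinoid genes, 0 to 1 transporters, 0 glucocorticoid genes throughout, 0 to 1 perineurial and 0 to 1 endoneurial markers. Of 45 listed genes called, 0 changed sign. The replicate block called 1866 genes higher and 1071 lower and moved 0 of 22 results by over 1.5 times, and deviations of same-numbered libraries had a correlation of -0.015, so the numbers do not pair the libraries. Where 1 library was left in an age, it was assumed to vary like the other age. Depth limits Angptl7, Adh7 and Slc47a1, whose folds rest on 1 or 2 neonatal counts.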
